A study of Mus musculus with 16 samples.

Results

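MHC class II molecules carry peptides of engulfed proteins to the surface of antigen-presenting cells, where CD4+ T cells read them. Each molecule is a pair of an alpha and a beta chain. H2-Aa and H2-Ab1 encode the pair of the mouse molecule I-A, and H2-Eb1 encodes the beta chain of the molecule I-E. The invariant chain Cd74 fills the peptide groove during assembly, and the H2-DM dimer of H2-DMa and H2-DMb1 later exchanges the remaining fragment for an antigen peptide. In liver these genes are mostly used by Kupffer cells, dendritic cells and B cells, and their transcription depends on the coactivator Ciita, which interferon gamma induces. The 6 genes H2-Aa, H2-Ab1, H2-Eb1, Cd74, H2-DMa and H2-DMb1 were chosen by name, and all 6 had a row among the 15544 genes of the liver table.

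Livers came from 16 female mice, 27 weeks old, with 4 mice in each of 4 groups. All mice, controls included, were homozygous for a floxed allele of Esr1, the gene of oestrogen receptor alpha. The controls were Esr1fl/fl, and the mutants were Esr1Nkx2-1Cre, in which a Cre recombinase under Nkx2-1 deletes the receptor in part of the hypothalamus. Nkx2-1 is also active in thyroid and lung, and the liver was not the target. Mice of both genotypes ate either chow or, over 17 weeks, a high-fat diet (HFD). The colony was a CD-1;129P2 mix, and the MHC haplotype of each mouse was not given. Each library is the RNA of 1 whole liver sample, so fewer cells of a type and less RNA per cell cannot be told apart. The comparisons asked whether the mutation, the diet or their combination changed these genes.

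The values are normalised abundances on the TPM scale, a share of the transcripts of a library adjusted for transcript length, so levels of different genes can be compared. Column totals ran from 905897 to 1119703, and each library held from 11834 to 12443 genes at 1 or more. By their title numbers the libraries form 4 series, and no series spans both diets. Series 1 and 4 hold the HFD livers, and series 2 and 3 hold the chow livers. Series 4 holds 3 mutants and 1 control and series 1 holds 3 controls and 1 mutant, so genotype and series overlap on HFD. Albumin (Alb), the hepatocyte product, lay between 36040 and 79770 in every library. Mutant chow replicates 1 and 2 stood apart in some monocyte genes: Ly6c2 was 47.9 and 92.2 there and between 2.62 and 5.59 in the other 14 libraries. Chil3, a product of myeloid cells, was 65.5 and 149 in those 2 libraries and at most 4.50 elsewhere. Some listed monocyte and recruited macrophage markers did not stand apart: Trem2 was at most 6.04 and Gpnmb at most 0.274 in chow mutants. The highest values of Trem2 and Gpnmb, 13.55 and 0.649, were in HFD controls.

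The 5 chain genes lie close together on chromosome 17. On GRCm38, by GENCODE M21, H2-DMa runs from 34119541 to 34139101, H2-DMb1 from 34153072 to 34160230, H2-Ab1 from 34257689 to 34269419 and H2-Eb1 from 34305867 to 34316674, all on the plus strand. H2-Aa lies between H2-Ab1 and H2-Eb1 on the minus strand, from 34282744 to 34287823. The promoters of class II genes are known for an X box, bound by the RFX complex, and a Y box, bound by NF-Y, onto which Ciita assembles. Promoters of 4 of the 6 members were searched for both sets of letters. The 90 bases from 110 to 21 bases before the RefSeq start are shown for H2-Aa, H2-Eb1 and H2-DMb1, the 3 of these 4 whose promoter holds the pair, because they have this stretch in common. The RefSeq start of H2-DMb1, 34153191, lies inside the GENCODE span given above, so its window does too, whereas both annotations start H2-Aa and H2-Eb1 at the same base. The sequences are from RefSeq on GRCm38.p6, 5′ to 3′ on the strand of the gene. Capitals mark the X-box letters CTNGNAAC, which come first, and the Y-box letters ATTGG.
H2-Aa, chr17:34287844-34287933, minus strand: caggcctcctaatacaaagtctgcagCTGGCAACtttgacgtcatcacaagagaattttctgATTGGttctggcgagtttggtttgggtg
H2-Eb1, chr17:34305757-34305846, plus strand: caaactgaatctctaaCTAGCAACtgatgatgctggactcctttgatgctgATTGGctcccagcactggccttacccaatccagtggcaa
H2-DMb1, chr17:34153081-34153170, plus strand: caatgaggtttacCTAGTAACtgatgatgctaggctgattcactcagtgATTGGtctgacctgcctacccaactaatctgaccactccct

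In these windows, counting backwards from the RefSeq start, the X-box letters begin at position -84 in H2-Aa, -94 in H2-Eb1 and -97 in H2-DMb1. The Y-box letters follow 36 bases later in H2-Aa and H2-DMb1 and 35 bases later in H2-Eb1. The letters were chosen after these promoters had been read. Searched on both strands of all 32851 listed promoters of 300 bases, the X-box letters occurred in 13.2%, the Y-box letters in 37.4%, and the pair in this order, 20 to 50 bases apart, in 0.368%. The pair was also in the promoter of H2-Ob, a chain of the H2-DO dimer that restrains H2-DM. It was in neither listed promoter of H2-DMa and not in those of H2-DMb2 and H2-Oa. The promoters of H2-Ab1 and Cd74 were not analysed here.

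The order of the members by level was nearly fixed. Cd74 was the highest member in 16 of 16 libraries, followed in all 16 by H2-Eb1. H2-Aa came next in 13 libraries and H2-Ab1 in the other 3. H2-DMa and then H2-DMb1 closed the order in every library. The median over the libraries was 205 for Cd74, 90.8 for H2-Eb1, 79.3 for H2-Ab1, 79.1 for H2-Aa, 6.89 for H2-DMa and 2.79 for H2-DMb1. The levels of H2-Aa and H2-Ab1 differed by less than their spread over livers, whereas the places of Cd74 and of both H2-DM genes held in each library.

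H2-Aa, the alpha chain, was 73.0, 61.7, 132 and 223 in chow controls, 164, 201, 47.8 and 136 in chow mutants, 65.5, 149, 85.1 and 66.8 in HFD controls, and 98.7, 67.8, 69.5 and 60.4 in HFD mutants. Within each chow group, H2-Aa was high in some livers and low in others, and all 4 groups overlapped. Its range over the series was 4.66-fold, against 2.47-fold within HFD livers.

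H2-Ab1, the partner beta chain, was 62.8, 52.0, 122 and 230.2 in chow controls, 156, 168, 38.4 and 134 in chow mutants, 59.3, 163, 93.0 and 59.4 in HFD controls, and 98.3, 57.7, 65.6 and 52.6 in HFD mutants. The livers ranked nearly as for H2-Aa, with the highest value 5.99-fold above the lowest. H2-Eb1, the other beta chain, was 83.5, 72.9, 158 and 290.5 in chow controls, 192, 216, 52.3 and 168 in chow mutants, 67.6, 186, 98.2 and 76.6 in HFD controls, and 114, 69.9, 76.9 and 68.8 in HFD mutants. Mutant chow replicate 3, with the lowest H2-Eb1 of all, lay in the group that also held 3 of the 5 highest values.

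Cd74 is the only member outside this region, on chromosome 18 from 60803848 to 60812652 on the plus strand (GRCm38). The invariant chain was 155, 169, 354 and 692 in chow controls, 457, 549, 131 and 386 in chow mutants, 178, 394, 217 and 193 in HFD controls, and 263, 176, 181 and 178 in HFD mutants. The values of mutants on HFD were close together but for replicate 1, and they lay within the range of both chow groups.

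H2-DMa, the alpha chain of the peptide exchanger, was 4.43, 4.19, 9.34 and 13.8 in chow controls, 9.35, 13.3, 4.03 and 13.7 in chow mutants, 4.42, 9.89, 6.53 and 5.59 in HFD controls, and 8.97, 7.24, 4.59 and 5.57 in HFD mutants. It followed the classical chains at a far lower level. H2-DMb1, its beta chain, was 2.04, 1.44, 2.79 and 7.09 in chow controls, 4.45, 6.70, 1.52 and 2.80 in chow mutants, 2.84, 4.89, 3.05 and 1.58 in HFD controls, and 3.46, 2.40, 1.44 and 1.88 in HFD mutants. H2-DMb1 is the member whose value is least certain, because its transcript and that of the neighbouring H2-DMb2 are 95.4% identical over 848 bases and reads may be split between them. H2-DMb2 ran from 1.29 to 6.04, and the sum of the pair gave no other call than H2-DMb1 alone.

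**Figure D1:**
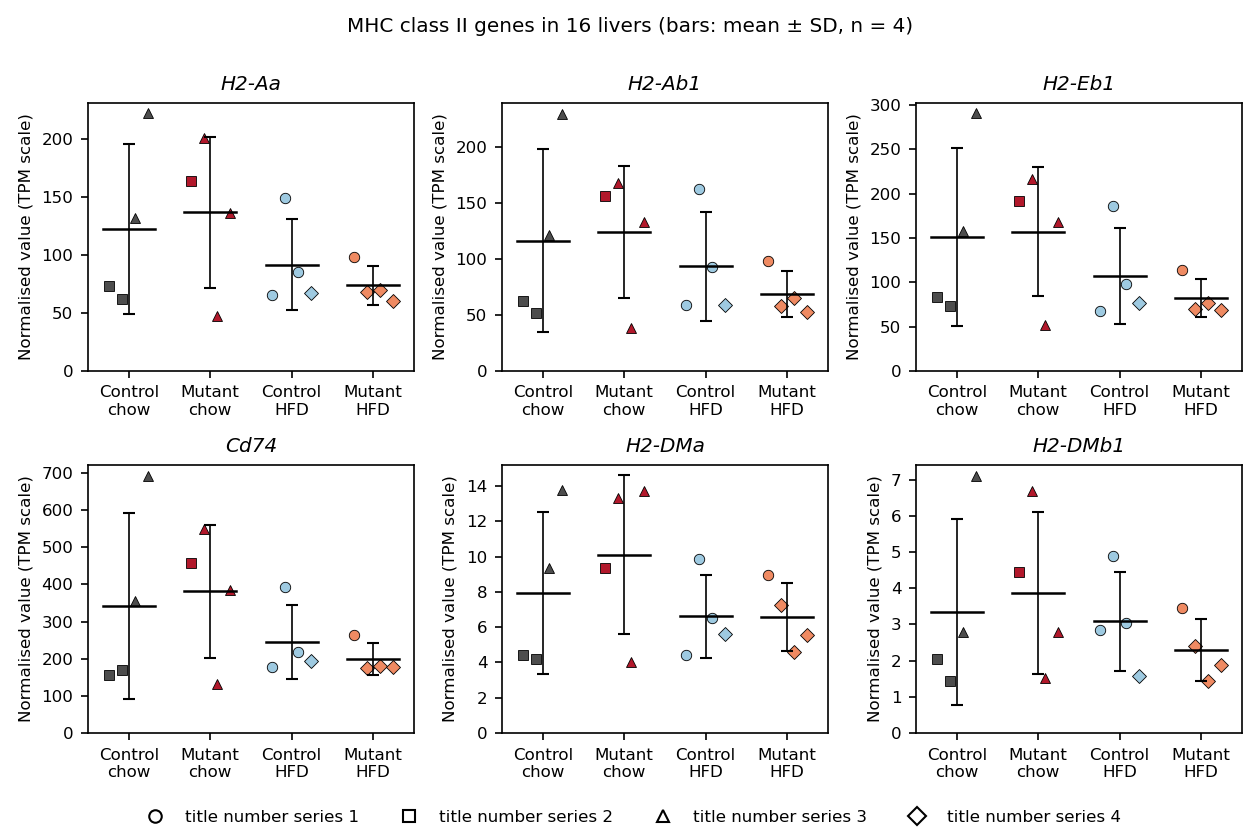
Normalised value (TPM scale, linear axis from 0) of each of the 6 members in 16 livers, grouped by genotype and diet; each point is 1 library, its shape is the number series of its title, and bars show the mean ± SD of 4 mice. The groups overlap for every gene, and control chow replicate 4 is the highest point in each panel.

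The livers ranked alike for all members. Control chow replicate 4 was highest for 6 of 6 genes, mutant chow replicate 2 was at rank 2 or 3 for each, and control HFD replicate 2 at rank 3 or 4. Mutant chow replicate 3 was lowest for 5 genes and at rank 14 of 16 for H2-DMb1. Averaged over the members as the deviation from each gene's mean on the log2(value + 1) scale, libraries ran from 1.22 in control chow replicate 4 to -0.91 in mutant chow replicate 3. Both ends of this range were chow livers. The pooled SD of that average within groups was 0.68 on the log2 scale. The SD of a member within groups lay between 0.59 for H2-DMa and 0.80 for H2-Ab1 on that scale, and only 2.83% of tested genes varied as much as H2-Ab1 and 6.56% as much as H2-DMa.

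**Figure D2:**
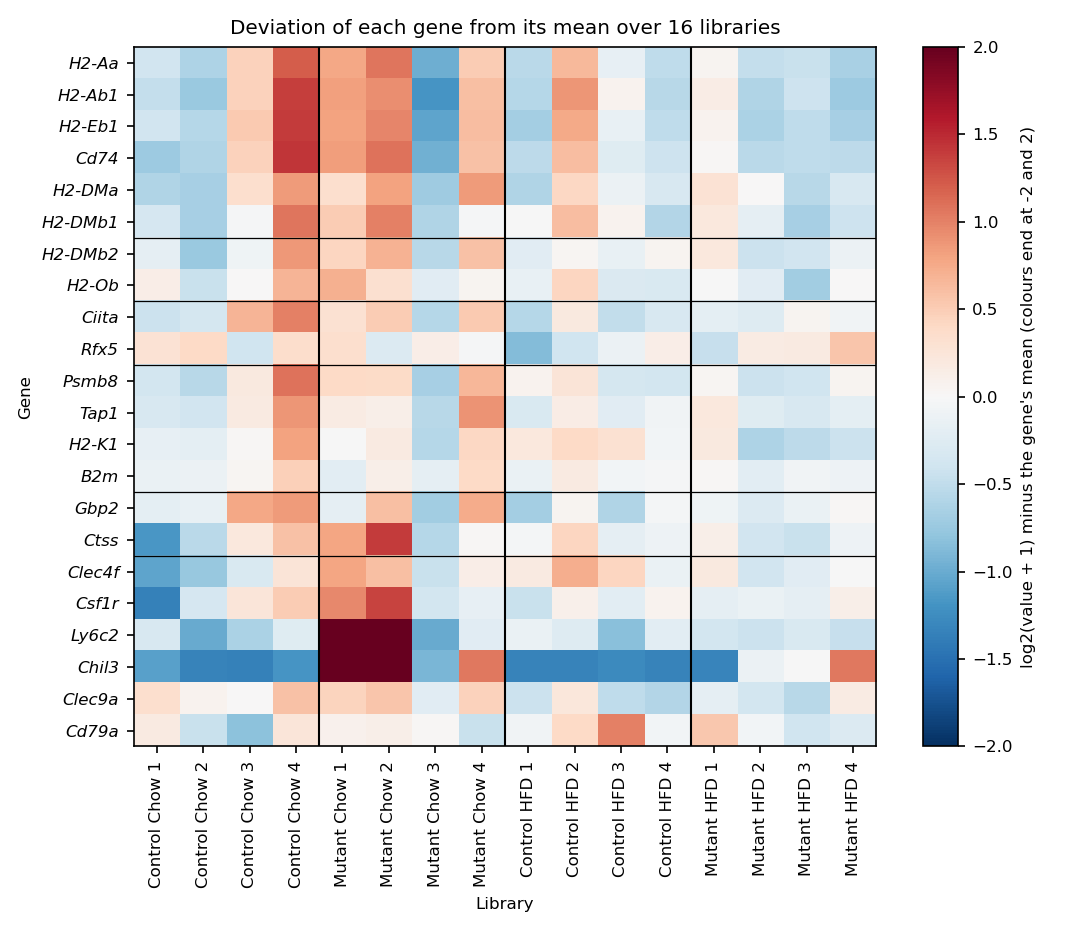
Deviation of each gene from its own mean over 16 libraries, on the log2(value + 1) scale, for the 6 members (top) and genes of related lists (below), with libraries in columns by group; colours end at -2 and 2. The members share 1 pattern of columns, Psmb8 and Ciita resemble it, and Ly6c2 and Chil3 are highest in mutant chow replicates 1 and 2.

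On chow, the means of all 6 members were higher in mutants, and none passed the test. Group means were 122 ± 73.6 (SD, n = 4) in controls and 137 ± 65.1 in mutants for H2-Aa, 117 ± 81.6 and 124 ± 59.0 for H2-Ab1, and 151 ± 100.3 and 157 ± 72.5 for H2-Eb1. Cd74 averaged 343 ± 249.9 in controls and 381 ± 179 in mutants. The exchanger chains averaged 7.94 ± 4.57 and 10.1 ± 4.52 for H2-DMa, and 3.34 ± 2.56 and 3.87 ± 2.24 for H2-DMb1. In each case the difference of the means was smaller than the SD of either group. The log2 fold changes, mutant over control, had a median of 0.19 and ran from 0.10 (SE 0.47) for H2-Eb1 to 0.34 (SE 0.38) for H2-DMa, beside a median of 0.02 over all tested genes. The fit was made with limma over 12704 genes, and 0 of 6 members passed at an adjusted p of 0.05 (lowest limma adjusted p = 0.984), against 0.0236% of all genes. At an unadjusted p of 0.05 limma also called 0 of 6, against 6.08% of all genes. The interval for H2-Aa reached from -0.76 to 1.11 on the log2 scale, and 4 livers a group could not tell a difference within that interval from none. Leaving out mutant chow replicate 2 gave a median of -0.06 and leaving out mutant chow replicate 3 gave 0.62. Without both mutant livers high in monocyte genes the median was -0.37, with no call.

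On HFD, values of most members were lower in mutants, and none passed the test. H2-Aa averaged 91.7 ± 39.5 in controls and 74.1 ± 16.8 in mutants, H2-Ab1 93.6 ± 48.7 and 68.6 ± 20.5, and H2-Eb1 107 ± 54.0 and 82.5 ± 21.4. Cd74 averaged 246 ± 100.1 in controls and 199 ± 42.2 in mutants. H2-DMa averaged 6.61 ± 2.35 in controls and 6.59 ± 1.93 in mutants, and H2-DMb1 was at 3.09 ± 1.37 and 2.29 ± 0.869. The median log2 fold change was -0.27, with a range from -0.36 (SE 0.50) for H2-Ab1 to 0.01 (SE 0.38) for H2-DMa. By limma 0 of 6 members passed, against 0.0157% of all genes, and 0 of 6 had an unadjusted p under 0.05, against 8.6% (lowest limma adjusted p = 0.811, for H2-DMb1). Without control HFD replicate 2 the median was 0.01. With the title series as a term, H2-Aa differed by 0.02 on the log2 scale.

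The values on HFD were lower than on chow in most members, with no call. In controls the log2 fold changes of HFD over chow had a median of -0.24, from -0.39 (SE 0.47) for H2-Eb1 to 0.01 (SE 0.38) for H2-DMb1. By limma 0 of 6 members passed, against 0% of all genes, and 0 of 6 were under an unadjusted p of 0.05, against 12.9% of all genes (lowest limma adjusted p = 0.747). The median was 0.15 without control chow replicate 4, the liver with the highest class II values of the series. In mutants the values lay farther apart, with a median of -0.71 and a range from -0.77 (SE 0.47) for Cd74 and H2-Eb1 to -0.47 (SE 0.38) for H2-DMa. Cd74 did not pass (limma adjusted p = 0.797), its mean being 381 ± 179 on chow and 199 ± 42.2 on HFD (SD, n = 4). By limma 0 of 6 members passed in mutants, against 0% of all genes, and 0 of 6 at an unadjusted p of 0.05, against 6.86% (lowest unadjusted p = 0.119, for H2-Aa). For H2-Aa the interval ran from -1.66 to 0.21 on the log2 scale. The median was -1.17 without mutant chow replicate 3 and -0.48 without mutant chow replicate 2. Markers of several cell types were lower on HFD in mutants beside the members, with no call by limma after adjustment. Monocyte markers had a median log2 fold change of -1.15 (5 of 6 tested lower), pan-leukocyte markers -0.76 (6 of 6) and Kupffer cell markers -0.50 (11 of 11). Dendritic cell and B cell markers had medians of 0.04 and -0.04. Both livers with high Ly6c2 were in the chow mutants, and without those 2 livers the members' median was -0.17. The part of these markers in the result was not tested.

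No member passed for a diet difference that depended on genotype. The interaction, the diet change in mutants minus that in controls, had a median of -0.45 over the members, from -0.50 (SE 0.71) for H2-Ab1 to -0.33 (SE 0.53) for H2-DMa. By limma 0 of 6 members passed, against 0% of all genes, and 0 of 6 at an unadjusted p of 0.05, against 4.21% (lowest limma adjusted p = 0.906). Without the 2 mutant chow livers high in Ly6c2 and Chil3 the median interaction was 0.085. The interval of the interaction for Cd74 ran from -1.91 to 0.92 on the log2 scale. An exact two-sided permutation test of single genes gave values from 0.143 to 0.971 over the 24 pairs of gene and two-group contrast, where 0.0286 is the smallest that 70 splits of 4 against 4 livers allow, and every adjusted value was 0.971. The groups overlapped for 6 of 6 members in each two-group contrast. Over all genes the groups were apart for 3.05% between genotypes on chow and 2.69% on HFD, and between diets for 6.36% in controls and 3.53% in mutants. These p-values set the group differences against the spread between these mice.

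**Figure D3:**
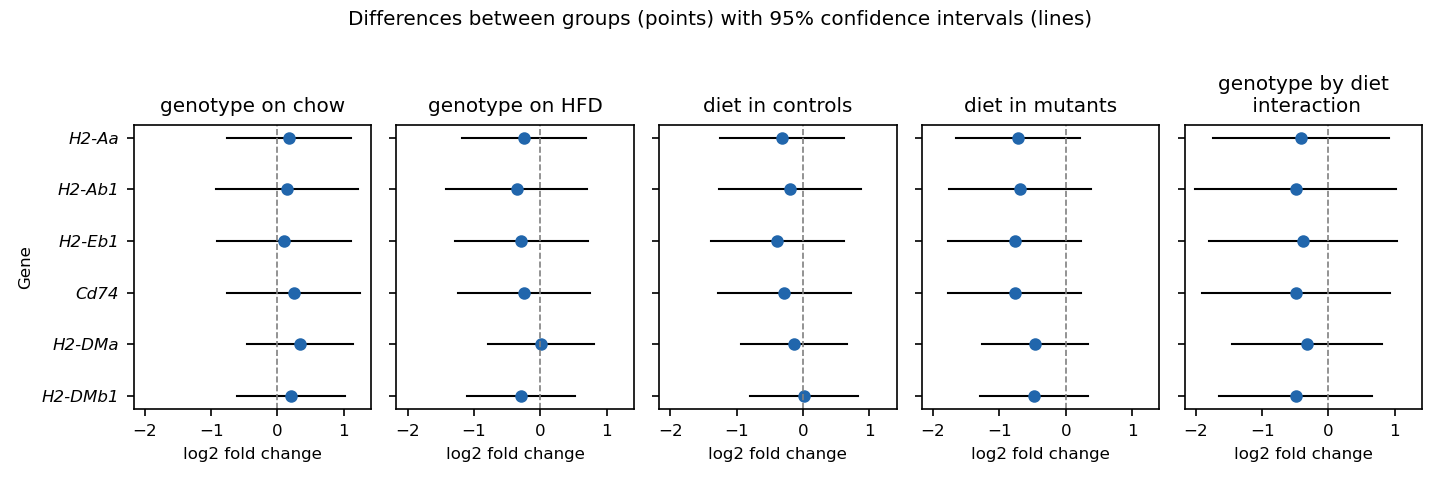
Log2 fold change (points) with its 95% confidence interval (lines) for each member in the 5 contrasts, fitted with limma on log2(value + 1) over 16 livers. All intervals cross 0. The points of diet in mutants, at -0.47 to -0.77, lie farthest from it for each gene but H2-DMb1, whose interaction is slightly farther out.

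The number series of the titles were compared within a diet, adjusted for genotype. On chow, series 3 was higher than series 2 by a median of 0.57 on the log2 scale, and limma called 0 of 6 members, against 0% of all genes (lowest limma adjusted p = 0.508). That median was 1.39 without mutant chow replicate 1 and 0.15 without control chow replicate 4. On HFD, series 4 was lower than series 1 by a median log2 difference of -0.55, with 0 of 6 members called, against 25.2% of all genes (lowest limma adjusted p = 0.225). At an unadjusted p of 0.05 the counts were also 0 of 6 in both diets, against 11.6% on chow and 37.8% on HFD. The 4 livers of series 4 lay close together, with H2-Aa between 60.4 and 69.5 and Cd74 between 176 and 193. Series 1, the other HFD series, spread from 65.5 to 149 for H2-Aa. Of 112 tested genes of the other lists, 14 passed between the HFD series, or 12.5%, below the 25.2% of all genes. Rfx5 was higher in series 4 (log2 difference 0.68, limma adjusted p = 0.0336), and 4 of 14 interferon gamma genes were higher (Jak1, Jak2, Gbp7 and Iigp1, by 0.47 to 0.91), a share near that of all genes. In the class I list Erap1 was higher by 0.68 and Psmb10, an immunoproteasome subunit, was lower (-0.78, limma adjusted p = 0.0075). C1qa, a complement chain of Kupffer cells, was lower too (-1.09, limma adjusted p = 0.042), as was Trem2 (-0.61). Cd274, Marchf8, Stab2, Reln and Rgs5 were higher, by 0.41 to 1.16. What the series stand for was not stated, and on HFD the series and the genotype cannot be fully told apart.

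Ratios of members within a library varied less within groups than the levels of single members did. The ratio of H2-Aa to H2-Ab1 within a library lay between 0.916 and 1.24, with a median of 1.09. The ratio of H2-Eb1 to H2-Ab1 lay between 1.06 and 1.40, and that of Cd74 to the mean of H2-Aa and H2-Ab1 between 2.29 and 3.14. The SD within groups of these 3 ratios was 0.14, 0.08 and 0.14 on the log2 scale, below the 0.59 to 0.80 of single members. The 2 H2-DM chains held together less, with an H2-DMa to H2-DMb1 ratio from 1.56 to 4.91 and an SD of 0.43. In 16 exact permutation tests of ratio and contrast, adjusted together, the lowest adjusted p was 0.686. The lowest unadjusted p, 0.0571, was for H2-Eb1 to H2-Ab1, at 1.32 ± 0.0589 in controls on chow and 1.16 ± 0.0973 in controls on HFD (SD, n = 4, exact permutation test), with a log2 difference of -0.20.

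**Figure D4:**
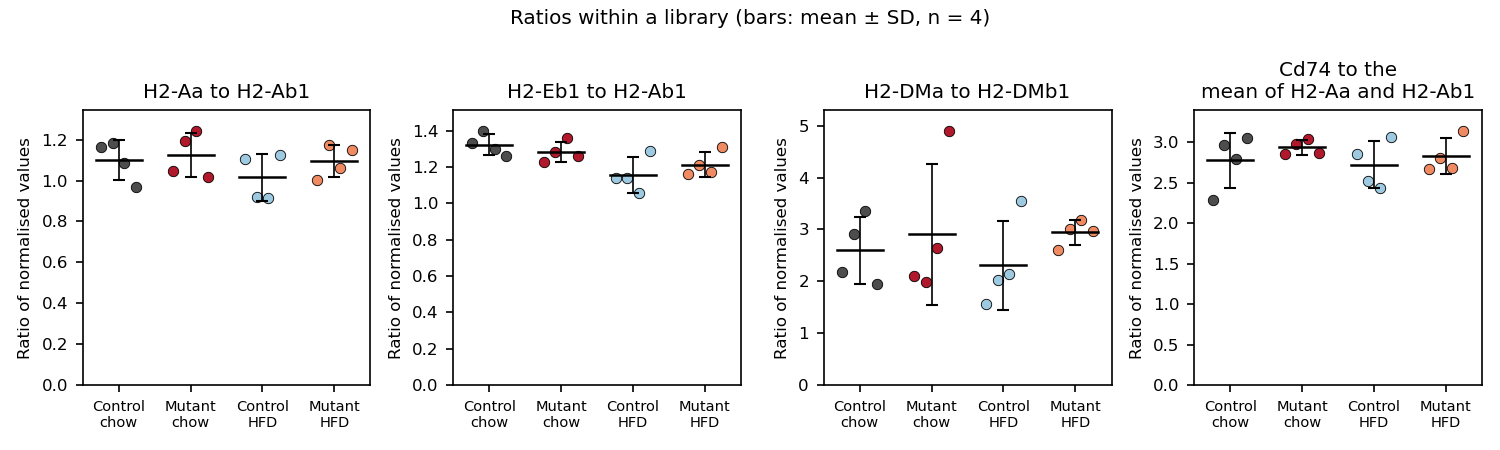
Ratio of the normalised values of 2 members, or of Cd74 to the mean of 2 members, within each library (linear axis from 0), by group, with the mean ± SD of 4 mice. The ratios of H2-Aa, H2-Eb1 and Cd74 to H2-Ab1 or to the chain mean stay within narrow bands, and H2-DMa to H2-DMb1 runs from 1.56 to 4.91.

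Across the 16 livers H2-Aa correlated with every other member on the log2(value + 1) scale. Pearson's r was 0.995 with H2-Eb1 (Spearman's rho = 0.979), 0.988 with H2-Ab1 (rho = 0.982) and 0.988 with Cd74 (rho = 0.909). It was 0.919 with H2-DMa (rho = 0.903) and 0.905 with H2-DMb1 (rho = 0.835). The permutation p of each r was 1e-05, the smallest that 100000 permutations give, and 4.2e-05 after adjustment over 21 relations, and the adjusted p of rho was at most 0.00067. All 5 relations held within chow (r of 0.940 or more) and within HFD (r of 0.824 or more), and without the 2 livers farthest out r was still at least 0.828. These genes share libraries and, save Cd74, a chromosome region.

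Of the 8 listed genes that transcribe class II, Ciita, the coactivator, had the highest correlation with H2-Aa. Its values were 0.807, 0.911, 2.90 and 3.91 in chow controls, 2.01, 2.48, 0.648 and 2.49 in chow mutants, 0.645, 1.80, 0.739 and 0.954 in HFD controls, and 1.12, 1.03, 1.53 and 1.33 in HFD mutants. The 5 chow livers with Ciita at 2.01 or more were the 5 chow livers with H2-Aa at 132 or more, limits set after the values were seen. Control HFD replicate 2 had H2-Aa at 149 with Ciita at 1.80. The r of Ciita with H2-Aa was 0.868 (adjusted permutation p = 0.00011) and its rho 0.762 (adjusted permutation p = 0.0023). The r was 0.930 in the 8 chow livers, 0.478 in the 8 HFD livers, and 0.835 without the 2 livers farthest out. Ciita itself passed in no contrast (lowest limma adjusted p over the 4 two-group contrasts = 0.4995, diet in controls, log2 fold change -0.52). The RFX and NF-Y subunits and Creb1, which occupy the class II promoter with it, had r between -0.390 for Nfyb and 0.337 for Nfya, with Rfx5 at -0.167, beside a median r of 0.0129 over 12703 genes. By limma 0 of the 8 genes passed in any of the 5 contrasts. At an unadjusted p of 0.05 limma called only Creb1, by genotype on HFD, by diet in controls and in the interaction. The shares of all genes called there were 8.6%, 12.9% and 4.21%.

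The other class II chains were low. H2-DMb2, the near-copy of H2-DMb1, had an r of 0.866 with H2-Aa (adjusted permutation p = 0.00015) and a rho of 0.815 (adjusted permutation p = 0.00098), with r of 0.931 on chow, 0.512 on HFD and 0.763 without the 2 livers farthest out. H2-Ob ran from 0.213 to 2.22, and H2-Oa, its partner, from 0.152 to 0.995. H2-Oa stayed under the expression filter and was not tested, and neither of the 2 tested chains of this list passed in a contrast.

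Genes of interferon gamma response, antigen processing, class II turnover and class I presentation were compared as lists, and in the 5 contrasts limma passed 0 genes of these lists. At an unadjusted p of 0.05, 4 of 14 interferon gamma genes were lower on HFD in controls, against 12.9% of all genes. They were Gbp3, Gbp7, Irgm1 and Iigp1, and Iigp1, an interferon-induced GTPase, was 160.0 ± 37.1 on chow and 103 ± 35.7 on HFD (SD, n = 4, limma adjusted p = 0.288). The other calls at that level were Ifngr1, Lgmn and Icosl by genotype on chow, H2-K1 by genotype on HFD, and Icosl by diet in mutants. In these contrasts, in that order, 6.08%, 8.6% and 6.86% of all genes were called. The class I list, which holds the H2-K1 and H2-D1 heavy chains, B2m, the Tap transporter and the immunoproteasome, followed H2-Aa as a sum (r = 0.801, adjusted permutation p = 0.00026, rho = 0.771, adjusted permutation p = 0.0017). That r was 0.768 on chow, 0.857 on HFD and 0.756 without the 2 farthest livers. Of its 12 genes, Psmb8, an immunoproteasome subunit, had the highest r (0.871) and Erap1, the peptide trimmer, the lowest (0.193). Abundant genes weigh most in a sum, and B2m averaged 3444 beside a median class I sum of 4539. The sum of 14 interferon gamma genes had an r of 0.595 (adjusted permutation p = 0.021) and a rho of 0.529 (adjusted permutation p = 0.05). This relation did not hold within HFD, where r was -0.227, against 0.725 on chow, and it was 0.456 without the 2 farthest livers. Iigp1, the most abundant gene of this list, averaged 134.9 beside a median sum of 326.1. Ctss, the protease that trims Cd74, had the highest r of 8 endosomal genes (0.816), and the sum of that list had an r of 0.589 (adjusted permutation p = 0.021), with 0.661 on chow, 0.517 on HFD and 0.509 without the 2 farthest livers (rho = 0.535, adjusted permutation p = 0.05). The list of class II turnover and costimulation had an r of 0.143 as a sum (adjusted permutation p = 0.62, rho = 0.0765, adjusted permutation p = 0.78), with 0.259 on chow, -0.197 on HFD and 0.065 without the 2 farthest livers, and Cd86, a costimulator, was its highest gene (r = 0.674).

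Neighbours of the class II genes on chromosome 17 did not all follow them. The interval from H2-DMa to H2-Eb1, 197134 bases long, holds 18 annotated genes, of which 13 were tested. Psmb8, Tap1, H2-Ob, Psmb9 and Tap2 had r with H2-Aa of 0.871, 0.814, 0.796, 0.743 and 0.663. Brd2, a chromatin reader at the edge of the interval, had an r of 0.0901 and ran only from 36.4 to 56.1. Of all tested genes, the 10 whose pattern was most like the mean of the 6 members over 16 livers, by Pearson's r, were Fcgr4 (0.919), Slc15a3 (0.908), Ly9 (0.899), Psmb8 (0.889), Hk3 (0.886), H2-DMb2 (0.880), Themis2 (0.873), Itgb7 (0.871), Trpm2 (0.869) and Ly6a (0.862). Fcgr4 is an activating IgG receptor of myeloid cells, Slc15a3 a lysosomal peptide transporter and Hk3 a hexokinase of leukocytes. Of these 10 genes, 7 were highest in mutant chow replicate 1 or 2, the livers high in monocyte genes, and the other 3 in control chow replicate 4. Without mutant chow replicates 1 and 2, a step chosen after the data were seen, their r lay between 0.841 for H2-DMb2 and 0.917 for Fcgr4 (n = 14). These 10 genes were picked by their r over all 16 livers, so a high r in 14 of them was largely set by that choice. They share libraries with the members, and 51 of 12698 other genes had an r of 0.8 or more.

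Markers of the cells that use class II were summed per library. The 11 Kupffer cell markers, among them Clec4f, Timd4 and the C1q chains, summed to between 231.8 and 1088, and all 11 had values in the table. Their r with H2-Aa was 0.775 (adjusted permutation p = 0.00088), with a rho of 0.759 (adjusted permutation p = 0.0023), and r was 0.828 on chow, 0.843 on HFD and 0.813 without the 2 farthest livers. Single Kupffer markers had r from 0.601 to 0.790 over the 16 livers, and from 0.155 for Adgre1 to 0.899 for C1qb within HFD. The sum was 717 in control chow replicate 4, where class II was highest, and 948 and 1088 in mutant chow replicates 1 and 2. By group it spanned 231.8 to 717 in controls on chow, 375 to 1088 in mutants on chow, 431 to 781 in controls on HFD and 387 to 630.0 in mutants on HFD. Genes of all leukocytes, such as Ptprc and Cd52, had an r of 0.784 as a sum (adjusted permutation p = 0.00026, rho = 0.806, adjusted permutation p = 0.0011), with 0.771 on chow, 0.854 on HFD and 0.874 without the 2 farthest livers. Within HFD, the single genes of this list had r from -0.195 for Ptprc to 0.875 for Cd52. Their sum spanned 60.0 to 122 in controls on chow, 68.5 to 340.9 in mutants on chow, 76.0 to 108 in controls on HFD and 70.3 to 91.1 in mutants on HFD.

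Dendritic cell markers were scarce, with Flt3 at most at 0.544 and Zbtb46 between 1.84 and 3.02. The 10 of 11 listed genes with values summed to between 8.22 and 18.3. Their r with H2-Aa was 0.742 (adjusted permutation p = 0.0025) and rho 0.606 (adjusted permutation p = 0.028), with 0.899 on chow, 0.539 on HFD and 0.740 without the 2 farthest livers. Single dendritic cell genes had r from 0.00668 for Ccr7 to 0.741 for Flt3, with a median of 0.432. Only 5 of the 10 passed the expression filter. The sum spanned 10.4 to 16.1 in controls on chow, 10.7 to 18.3 in mutants on chow, 9.93 to 17.5 in controls on HFD and 8.22 to 14.7 in mutants on HFD. Markers of T cells, which in the mouse make little class II themselves, had an r of 0.722 (adjusted permutation p = 0.0037, rho = 0.635, adjusted permutation p = 0.019), with 0.897 on chow, 0.405 on HFD and 0.705 without the 2 farthest livers. Their sum spanned 4.93 to 12.4 in controls on chow, 5.38 to 11.3 in mutants on chow, 5.76 to 9.29 in controls on HFD and 4.74 to 9.85 in mutants on HFD. Single T cell genes had r from -0.0819 for Cd4 to 0.659 for Cd3e, with a median of 0.401. The sum of B cell markers spanned 8.83 to 22.5 in controls on chow, 13.1 to 51.1 in mutants on chow, 13.6 to 21.9 in controls on HFD and 18.2 to 32.9 in mutants on HFD. Its r with H2-Aa of 0.464 (adjusted permutation p = 0.091, rho = 0.541, adjusted permutation p = 0.05) dropped to 0.214 without the 2 farthest livers, so that it rested on them. It was 0.678 on chow and 0.138 on HFD. Ighm, the most abundant B cell marker, averaged 12.6 beside a median sum of 17.8. No listed marker of these cell types was at 0 in a library but the T cell gene Cd5. Cd79a, a part of the B cell receptor, ran from 0.169 to 3.15.

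The sum of the monocyte markers split the livers into separate clusters. It was 141 and 365 in mutant chow replicates 1 and 2 and between 13.7 and 28.9 elsewhere, so no pooled r is given. Chil3 and Ly6c2, at 149 and 92.2 in replicate 2, made up much of the 365. In the other 14 livers r was 0.445, and in the 8 HFD livers 0.657. Single monocyte markers differed within HFD, with r from -0.598 for Itgam to 0.837 for Trem2 and Ly6c2 at -0.00564. Control chow replicate 4, the liver with the most class II RNA, had a monocyte sum of 20.2 and a Ly6c2 of 5.13. Sums of hepatocyte (r = -0.414), liver endothelial (r = 0.126), stellate cell (r = 0.152) and bile duct markers (r = 0.430) had adjusted permutation p-values from 0.12 to 0.65 and rho of -0.362, 0.0853, 0.0853 and 0.456 (adjusted permutation p from 0.094 to 0.78). Within chow and within HFD these r were -0.579 and -0.305 for hepatocyte, 0.424 and -0.558 for endothelial, 0.551 and -0.530 for stellate cell and 0.627 and -0.0352 for bile duct markers. Without the 2 farthest livers they were -0.531, -0.0808, -0.147 and 0.537. The part of cell content in the spread of the members was not tested.

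**Figure D5:**
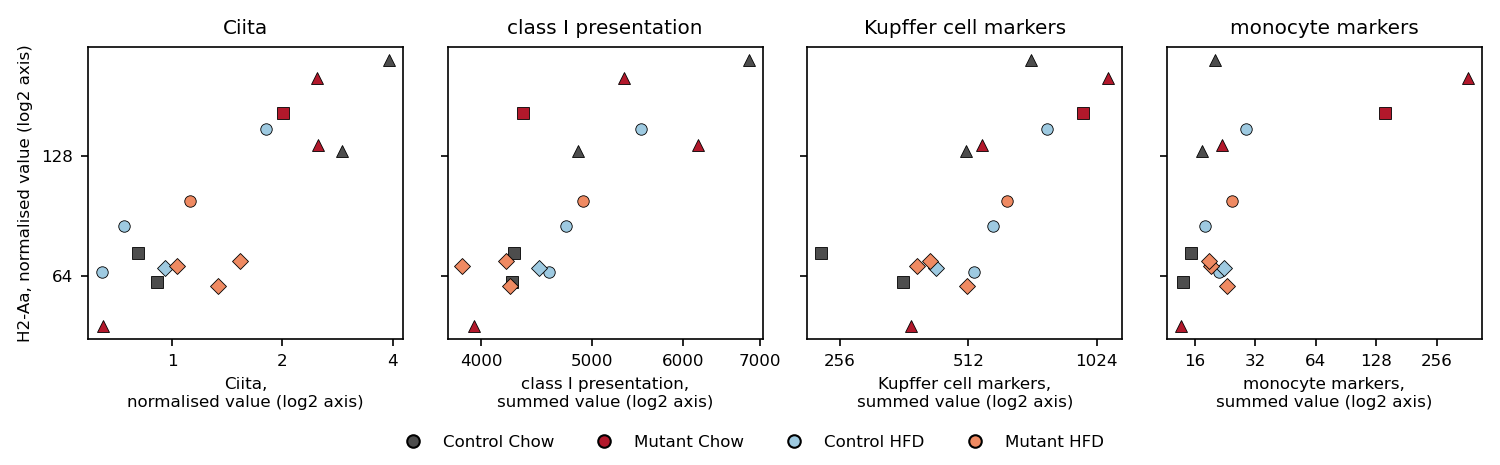
H2-Aa (normalised value, log2 axis) against Ciita and against the summed value of class I, Kupffer cell and monocyte genes (log2 axes) in 16 livers, coloured by group, with point shape for the title series as in the plot of values by library. H2-Aa is higher where Ciita, class I and Kupffer sums are higher, and 2 mutant chow livers lie apart on the monocyte axis at 141 and 365.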

How the data were processed

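RNA of 16 livers, 4 mice in each of 4 groups, was analysed from the processed table. According to the submitters' notes and the study's methods, the authors aligned reads to mouse transcripts (mm10) with kallisto in gene mode and used sleuth; versions are not given in the sources used here. The deposited values are a signal on the TPM scale, and their column totals differ, from which a size-factor adjustment by the authors was inferred; this scale keeps no depth, so depth is unknown and no counting interval was computed. A count model, foreseen for counts, was not applicable. Strain variants of MHC genes may change how reads fit the single reference.

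Values were analysed as log2(value + 1), which understates changes of low genes, for the 12704 of 15544 genes that reached 1 in 4 or more libraries. The 4 group means were fitted together over all 16 libraries with limma 3.58.1 in R 4.3.3, with a mean-variance trend and Benjamini-Hochberg adjustment over all tested genes at 0.05. Ratios and single genes were compared by exact permutation tests, and correlations by 100000 permutations (scipy 1.17.1, Python 3.11.15). Transcripts were compared with BLAST 2.17.0. Positions came from GENCODE M21 (GRCm38).

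Groups came from the genotype and treatment labels. Replicates were numbered in sample order within a group and pair nothing. The members, lists and rules were chosen with earlier results of these data known. The 6 members are always named; of the other lists Ciita, any gene past the threshold in a contrast, and otherwise at most 4 genes by highest mean, and the 10 genes most like the members. Other list genes in the text (Timd4, Flt3, Cd79a, Cd86, Cd52, Nfya, Erap1, Ly6c2, Chil3 and the like) were chosen after their values were seen. H2-Ea, H2-Eb2, Ifng, Ifi30 and Cd209a were not analysed here. For reasons unrelated to its values, 1 gene was left out of the interferon gamma list and is not reported here. Alternatives were other scalings, filters, a pseudocount of 0.1, library weights, the title series as a term, only the compared groups, and leaving out each library. After the data were seen, 2 were added: leaving out both mutant chow livers high in Ly6c2 and Chil3, and summing H2-DMb1 with H2-DMb2. No column of per-library values was left unused.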

Additional observations from a re-analysis of the deposited data

Results flagged for a closer look

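In mutants on HFD, the Cd74 value of replicate 1, 263, stood apart from the other 3 livers, which lay between 176 and 181. Its gap to the next value was 0.943 of the range of the group, above the 95% limit of Dixon's test for 4 samples. This was 1 of 40 sets of a gene and the 4 livers of a group examined, and chance alone gives such a value in about 1 of 20 groups. The liver is the only mutant of title series 1, and its ranks for the other members were 5 to 7 of 16.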

How the results depend on the processing

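No member passed the threshold in any contrast under any alternative, so what follows is the direction of uncalled differences (log2 scale). The lowest adjusted p over all alternatives was 0.114 (limma, H2-DMb1, genotype on HFD, library weights). The cause of each change was not tested. No paired analysis was possible because the labels give no replicate numbers that link libraries across groups. Depth is unknown and 4 livers a group with SDs of 0.59 to 0.80 limit the precision. A filter at 5 or more left out H2-DMb1.

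For genotype on chow, the title series as a term gave -0.0038 for H2-Ab1 and -0.044 for H2-Eb1, in place of positive values. Library weights gave -0.12 for H2-Aa, -0.15 for H2-Ab1, -0.18 for H2-Eb1, -0.061 for H2-DMb1 and -0.051 for Cd74. Without both mutant chow livers high in monocyte genes, the difference was -0.41 for H2-Aa, -0.44 for H2-Ab1, -0.46 for H2-Eb1, -0.33 for H2-DMb1 and -0.33 for Cd74. For genotype on HFD, the series term gave 0.022 for H2-Aa, 0.0012 for H2-Ab1 and 0.071 for H2-DMb1. H2-DMa was -0.016 with median-of-ratios size factors and -0.28 with library weights. For diet in controls, H2-DMb1 was -0.12 with each library rescaled to the same total, and H2-Ab1 was 0.085 with library weights. For diet in mutants, H2-DMb1 was 0.053 without both of these livers. For the interaction, the series term gave 0.0050 for H2-Ab1, 0.042 for H2-Eb1 and 0.041 for H2-DMa. Without both mutant chow livers high in Ly6c2 and Chil3, the interaction was 0.16 for H2-Aa, 0.086 for H2-Ab1, 0.17 for H2-Eb1, 0.038 for H2-DMb1 and 0.084 for Cd74.

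Leaving out 1 library at a time, genotype on chow ran from -0.092 to 0.61 for H2-Aa, -0.16 to 0.63 for H2-Ab1, -0.18 to 0.56 for H2-Eb1, -0.054 to 0.56 for H2-DMb1 and -0.042 to 0.70 for Cd74. Genotype on HFD ran from -0.39 to 0.017 for H2-Aa, -0.47 to 0.015 for H2-Eb1, -0.14 to 0.20 for H2-DMa and -0.38 to 0.0063 for Cd74. Diet in controls ran from -0.57 to 0.038 for H2-Aa, -0.50 to 0.21 for H2-Ab1, -0.35 to 0.15 for H2-DMa, -0.21 to 0.37 for H2-DMb1 and -0.57 to 0.15 for Cd74. The median over the members ran from 0.15 to 1.39 between the chow series. The ratio of H2-Aa to H2-Ab1 ran from -0.029 to 0.078 for genotype on chow and -0.082 to 0.015 for diet in mutants. The ratio of H2-DMa to H2-DMb1 ran from -0.19 to 0.25 for genotype on chow and -0.036 to 0.40 for diet in mutants. The ratio of Cd74 to the mean of H2-Aa and H2-Ab1 ran from -0.0011 to 0.14 for genotype on chow and -0.12 to 0.024 for diet in controls.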
